A study of Homo sapiens with 23 samples.

Results

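OCT4 binding was measured by ChIP-seq in SCi-NCCITs with and without doxycycline, with 1 library on each side. The members described here are all OCT4 peaks of both libraries on chromosomes 1 to 22 and X: 50550 peaks without doxycycline and 23066 with it, 73616 of the 1185047 peaks of all 11 ChIP-seq libraries. A peak without doxycycline was called kept when it shared at least 1 bp with a peak of the doxycycline library and lost otherwise, and a doxycycline peak that met no peak of the other library was called gained. With 1 library on each side the comparison of the OCT4 lists has no replicate check and no p-value. Shares are given with 95% Wilson intervals, which cover counting error only.

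NCCIT is a human embryonal carcinoma line, a tumour line that resembles pluripotent stem cells. SCi-NCCITs are NCCITs that carry a tetracycline-inducible dCas9-KRAB transgene, a catalytically dead Cas9 fused to a repressor domain, inserted with piggyBac, together with a pair of sgRNAs that are expressed at all times. The cells were selected with puromycin and geneticin and stable clones were isolated. The OCT4, YY1, H3K9me3 and RNA groups each compared cells given 2 µg/mL doxycycline for 72 h with cells given none, so both sides carried the transgene and the sgRNAs and only doxycycline differed. No library came from doxycycline-treated cells that lacked dCas9-KRAB or the sgRNAs, so the repressor and the drug cannot be told apart. The study states that the sgRNAs were designed against sequence shared by SVA transposons and LTR5Hs elements.

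OCT4, encoded by POU5F1, is a POU-domain transcription factor that binds the octamer and, next to SOX2, a composite SOX and POU element. With SOX2 and NANOG it sustains the pluripotent state of embryonal carcinoma and embryonic stem cells, mostly from enhancers that lie away from promoters. H3K9me3 is the histone mark of heterochromatin that KRAB repressors deposit, and YY1 is a zinc finger factor that binds many promoters.

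Lost and kept OCT4 peaks with a high fold enrichment differed in sequence. The most frequent 20-mer followed by an NGG PAM in the lost peaks with a fold enrichment of at least 10, extended by 500 bp on each side, was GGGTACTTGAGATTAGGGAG, and its reverse complement, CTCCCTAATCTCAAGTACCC, ranked 2. The reverse complement is base for base the first sgRNA in the study's methods. With its PAM, the first of these 20-mers was found in 78 of 480 such lost peaks (16.2%). Among kept peaks in the same range of fold enrichment it was found in 76 of 8740 (0.870%). Peaks in that range with the 20-mer within 1 kb, lost or kept, often held the 8 bases ATATGCAT near the summit (94 of 166). Near the summit means in the 200 bp centred on it. These 8 bases were chosen after the summits had been read.

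Some strong kept peaks held an octamer or a composite near the summit, 15% and 17.1% of them in the 200 bp centred on it. Examples are shown, in GRCh37 (hg19), for SOX2 at chr3:181433908-181433956 (plus), NANOG at chr12:7941861-7941909 (minus), NMNAT2 at chr1:183372890-183372938 (minus) and TRIM71 at chr3:32822504-32822551 (minus), each peak named by a gene within 50 kb. Capitals mark the SOX-POU composite TTGTNATGC in the first 3 and the octamer ATGCAAAT in TRIM71. Other elements were left unmarked. NMNAT2 ends in the octamer and SOX2 holds ATATGCAT, both read on the strand opposite to the one printed.
SOX2: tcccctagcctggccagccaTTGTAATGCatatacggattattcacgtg
NANOG: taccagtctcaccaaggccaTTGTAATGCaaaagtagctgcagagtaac
NMNAT2: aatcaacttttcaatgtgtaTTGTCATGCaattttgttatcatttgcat
TRIM71: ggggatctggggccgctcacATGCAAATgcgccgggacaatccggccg

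Most OCT4 peaks were not called again with doxycycline, and the strongest nearly all were. Of 50550 peaks without doxycycline, 20210 were kept (40.0%, interval 39.6 to 40.4%) and 30340 were lost (60.0%). Of 23066 peaks with doxycycline, 20381 met a peak of the other library (88.4%) and 2685 were gained (11.6%). The kept share was higher in each higher class of fold enrichment, the ratio of signal to background at the summit as the authors' peak caller gave it. It was 8.17% under 4 (520 of 6367), 16.7% from 4 to 6 (3575 of 21437), 54.5% from 6 to 10 (7375 of 13526), 93.1% from 10 to 20 (6229 of 6690) and 99.2% at 20 and over (2511 of 2530). Among the 9220 peaks at 10 and over, called strong below, 480 were lost (5.21%, interval 4.77 to 5.68%). Of the 4465 strong peaks with doxycycline, 11 were gained (0.246%), and the strongest gained peak reached 13.0. With the list without doxycycline cut to its strongest peaks, as many as in the doxycycline list, 70.8% were kept and 28.2% of the doxycycline peaks were gained.

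The lists also differed in extent. The doxycycline list covered 9.58 Mb against 23.2 Mb without doxycycline, while the median fold enrichment was 5.60 against 5.73 and the highest 82.1 against 119. Loss of weak peaks through fewer reads or a weaker precipitation cannot be told apart from loss of binding with 1 library on each side, since the read depth of the OCT4 libraries was not given in the sources used here. By contrast, the YY1 lists grew with doxycycline, from 56068 and 75820 peaks to 81626 and 115312. Of strong YY1 peaks, 7 of 9849 and 21 of 12793 met no peak of the doxycycline library with the same replicate number, and 546 of the 9849 met none of the other library without doxycycline.

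The OCT4 peaks at promoters were lost more often than those elsewhere. Within 1 kb of a transcription start site (TSS) 2194 of 11385 were kept (19.3%), against 18016 of 39165 farther away (46.0%). The kept share was 44.2% at 1 to 10 kb, 46.4% at 10 to 50 kb and 49.8% beyond 50 kb. Among lost peaks 30.3% lay within 1 kb of a TSS, among kept peaks 10.9% and among gained peaks 7.41%. At matched fold enrichment the gap was seen in weak peaks, with 2.31% kept at TSSs against 11.5% elsewhere under 4 and 7.78% against 20.1% from 4 to 6. It was within the intervals in strong peaks, at 93.3% against 93.1% from 10 to 20 and 99.2% against 99.3% at 20 and over.

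Base composition moved with the loss at promoters. The median GC content of 200 bp around the summit was 66.5% in lost peaks within 1 kb of a TSS, 46.0% in kept ones, 42.0% in lost peaks farther away and 41.5% in kept ones, and its part in the loss was not tested. The YY1 lists did not lose promoter peaks in this way, with 87.0% and 92.0% of the peaks at TSSs called again with doxycycline and 84.9% and 85.9% of the others. Unlike the OCT4 list, the YY1 lists were larger with doxycycline, so a peak was more easily met there. Read from the doxycycline lists, 75.6% and 67.7% of the YY1 peaks at TSSs met a peak without doxycycline, and 54.1% and 53.9% of the others. By chromosome, the kept share of OCT4 peaks ran from 25.5% on chromosome 19 to 46.4% on chromosome X.

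OCT4 peaks that overlapped YY1 peaks were kept less often in all and within 1 kb of a TSS, but more often farther away. A YY1 peak of both libraries without doxycycline overlapped 27.1% of lost, 19.9% of kept and 7.04% of gained OCT4 peaks. With YY1, 4014 of 12240 OCT4 peaks were kept (32.8%), and without it 16196 of 38310 (42.3%). Within 1 kb of a TSS the shares were 13.8% with and 25.7% without YY1, while farther away they were 51.8% with and 44.9% without. At matched fold enrichment farther away, the share was 18.3% with and 10.3% without YY1 under 4, 16.8% and 20.6% from 4 to 6, 58.8% and 58.3% from 6 to 10, 92.2% and 93.3% from 10 to 20 and 98.6% and 99.6% at 20 and over, with no constant direction.

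Kept OCT4 peaks had lower fold enrichments with doxycycline as a whole, but not in the weakest class. The median log2 ratio, doxycycline over none, was -0.52 (interquartile range -0.86 to -0.20), and 85.5% of kept peaks were lower. At least 2-fold lower values were found in 3437 of them (17.0%) and at least 2-fold higher values in 70 (0.346%). In strong kept peaks the median was -0.70. By class of fold enrichment without doxycycline it was 0.10 under 4, where 37.7% were lower, and -0.18 from 4 to 6. It was -0.55 from 6 to 10, -0.73 from 10 to 20 and -0.65 at 20 and over. Classes cut on the values without doxycycline by themselves favour lower ratios in higher classes. The values of both libraries correlated over the 20210 kept peaks, with a Pearson r of 0.80 on the log2 scale and a Spearman rho of 0.74, as a description of peaks that share their libraries. The summits of kept peaks lay a median of 32 bp apart.

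Kept peaks more often held the OCT4 element. The octamer ATGCAAAT, on either strand within 200 bp around the summit, occurred in 14.4% of kept, 10.9% of gained and 7.45% of lost peaks, and in 2.02% of all genome windows of that length. Among lost peaks it was found in 2.43% within 1 kb of a TSS and in 9.64% farther away, and among kept peaks in 11.1% and 14.8%. In strong peaks the shares were 15% of kept and 9.58% of lost ones. The octamer and the composite can overlap in sequence, and a match here describes letters and no bound site.

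The 8 strongest kept OCT4 peaks near protein-coding genes all had lower values with doxycycline. They were ranked by their values without doxycycline, a choice that by itself favours lower values in the other library. The peak at NMNAT2, which encodes an NAD-synthesizing enzyme of neurons, had a fold enrichment of 119 without and 82.1 with doxycycline. The peak at SLC35D3 went from 99.8 to 73.7, and that at MPC1, a subunit of the mitochondrial pyruvate carrier, from 91.0 to 71.8. The peak at SMAD7, an inhibitor of TGF-β signalling, went from 81.3 to 63.4, and that at MYO5A, a myosin motor, from 80.5 to 63.0. DENND1B (83.6 to 51.7), FBRS (81.9 to 45.2) and BMS1 (81.8 to 60.0) completed the 8. Of these, 6 held an octamer or a composite and 0 lay within 1 kb of the 20-mer.

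The 8 strongest lost OCT4 peaks stood out by the opposite features. They had fold enrichments of 29.5 at PLAAT4, 29.2 at NNT, 25.4 at PRRC2B, 24.6 at EEIG2, 24.5 at ALKBH1, 24.2 at FAM20A, 23.3 at ST6GAL1 and 23.0 at TPRG1. PLAAT4 encodes a phospholipase, NNT the mitochondrial transhydrogenase, ALKBH1 a demethylase of nucleic acids, FAM20A a secreted pseudokinase of enamel formation and ST6GAL1 a sialyltransferase. The 20-mer was picked from the strong lost peaks, these 8 among them, and ATATGCAT after the summits were read, so their counts here are a description. None of the 8 peaks held an octamer or a composite, 6 held ATATGCAT near the summit and 6 lay within 1 kb of an exact 20-mer match. The other two, at ALKBH1 and FAM20A, had a site with 1 mismatch, C1A and C3T, counted from 1 at the 5′ end of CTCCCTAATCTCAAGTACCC. H3K9me3 gained with doxycycline, a peak found in each treated library and no untreated one, overlapped 7 of the 8, while NNT carried H3K9me3 in all 4 libraries. These peaks lay in introns or between genes, with PLAAT4 at chr11:63295329-63296522, 8506 bp upstream of its TSS.

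The 8 strongest gained peaks near protein-coding genes were weak beside these. Their fold enrichments with doxycycline were 11.6 at SIPA1L1, 10.8 at FOXP1, 10.3 at TNIK, 10.1 at H2BC12L, 9.70 at ANKRD1, 9.35 at FBXO32, 9.30 at TRMT11 and 9.15 at EDA. Of these, 4 held an octamer or composite and 0 lay within 1 kb of the 20-mer.

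Strong OCT4 peaks beside the letters of the 20-mer were lost far more often than strong peaks elsewhere. Since the 20-mer was picked for its number among strong lost peaks, the lost shares below are a description. The letters of the 20-mer, on either strand and with or without a PAM, had 2087 matches in the genome, of which 436 lay within 1 kb of an OCT4 peak without doxycycline and 103 within 1 kb of one with it. Of the 166 strong peaks near a match, 85 were lost (51.2%, interval 43.7 to 58.7%), against 395 of 9054 strong peaks elsewhere (4.36%). Counting also kept peaks at least 2-fold lower, the numbers were 149 of 166 (89.8%) and 2751 of 9054 (30.4%). With the fold measured from the median of the strong kept peaks, they were 69.3% and 6.77%. At a fold enrichment of 20 and over, 14 of 47 near a match were lost (29.8%) and 5 of 2483 elsewhere (0.201%). None of the 166 overlapped a de-repressed SVA of the study's list. Over all fold enrichments, 37 of 497 peaks near a match lay on such an SVA, and of the 56 OCT4 peaks on these SVAs 53 were lost (94.6%), against 60.0% of all peaks. Most of the 56 were weak. By class, 5 of 5 were lost under 4 (91.8% of all peaks in that class) and 32 of 32 from 4 to 6 (83.3%). From 6 to 10, 16 of 18 were lost (88.9%, against 45.5%), and the 1 peak at 20 and over was kept.

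The strong kept peaks near a match also stood lower, a measure that the choice of the 20-mer used only through the kept call. Their median log2 ratio was -1.53 over 81 peaks (interquartile range -1.94 to -1.11), against -0.70 elsewhere. At least 2-fold lower values were found in 64 of the 81 (79.0%), against 27.2% elsewhere. Weaker kept peaks did not show this. From 6 to 10 the median was -0.52 over 16 kept peaks near a match and -0.55 elsewhere. From 4 to 6 it was -0.06 over 6 and -0.18 elsewhere. The tallest was near ST6GAL1, at chr3:186610668-186612222, which went from 79.9 to 6.28. The peak at MTIF2, a mitochondrial translation factor, went from 66.3 to 11.4, and that at NCOA7 from 50.2 to 4.84. Other peaks near a match were lowered less, such as MRPL20, a mitochondrial ribosomal protein (68.0 to 17.0), RBM11 (56.7 to 25.8) and ALPG (44.6 to 26.7).

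**Figure D1:**
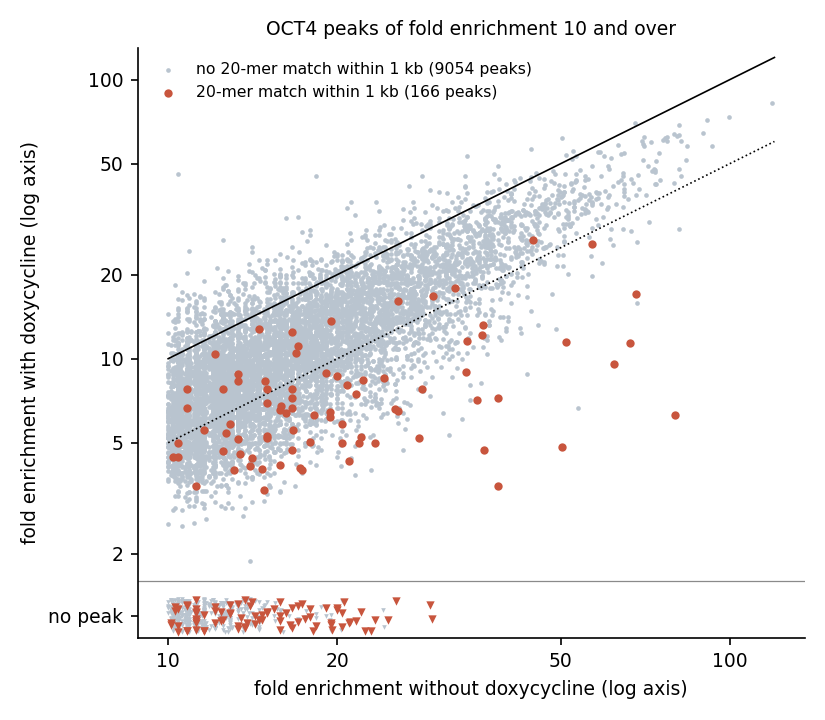
Fold enrichment of each strong OCT4 peak without doxycycline (x axis, log scale) and with doxycycline (y axis, log scale), for 166 peaks with a 20-mer match within 1 kb (red) and 9054 without (grey). The solid line marks equal values, the dotted line values 2-fold lower, and triangles in the bottom band mark peaks with no peak in the doxycycline library, where height has no meaning. Most red points lie under the dotted line or in the band.

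The lost share was highest where an NGG PAM followed an exact match to the sgRNA. The 20-mer was picked from strong lost peaks, among 20-mers that NGG followed. The split by PAM is therefore a description and no separate test. Of the 166 strong peaks near the letters, 140 had such a PAM and 26 had not. Without the PAM 3 of 26 were lost (11.5%) and 14 were lost or at least 2-fold lower (53.8%). With the PAM and 0 mismatches within 1 kb, 82 of 140 strong peaks were lost (58.6%) and 135 were lost or at least 2-fold lower (96.4%). With a PAM and 1 mismatch at best, 6 of 20 were lost (30.0%) and 16 were lost or 2-fold lower (80.0%), and with 2 mismatches 2 of 6 were lost. With 5 mismatches 0 of 6 were lost, and with 6 or more 390 of 9047 were lost (4.31%). The summits lay a median of 368 bp to one side of the 20-mer, with a signed offset of -368 bp (interquartile range -399 to -312) in the orientation of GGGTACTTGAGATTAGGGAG.

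The strong peaks near a match also differed in sequence and in the other ChIP-seq libraries. ATATGCAT was found near the summit of 94 of the 166 (56.6%) and of 306 of 9054 elsewhere (3.38%), and in 1.14% of all genome windows. The octamer showed the reverse, in 1.81% against 15%. H3K9me3 gained with doxycycline overlapped 117 of the 166 (70.5%) and 19 of the 9054 (0.210%). By library, H3K9me3 overlapped 12.0% and 11.4% of the 166 without doxycycline and 84.3% and 89.8% with it, and the libraries did not overlap. YY1 overlapped 77.1% and 86.7% without and 61.4% and 67.5% with doxycycline, while at strong OCT4 peaks elsewhere it overlapped 25.4% and 40.4% without and 30.3% and 46.1% with. In an exact two-sided permutation test of 2 against 2 libraries, p was 0.333 for both marks near a match, the smallest this design allows.

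**Figure D2:**
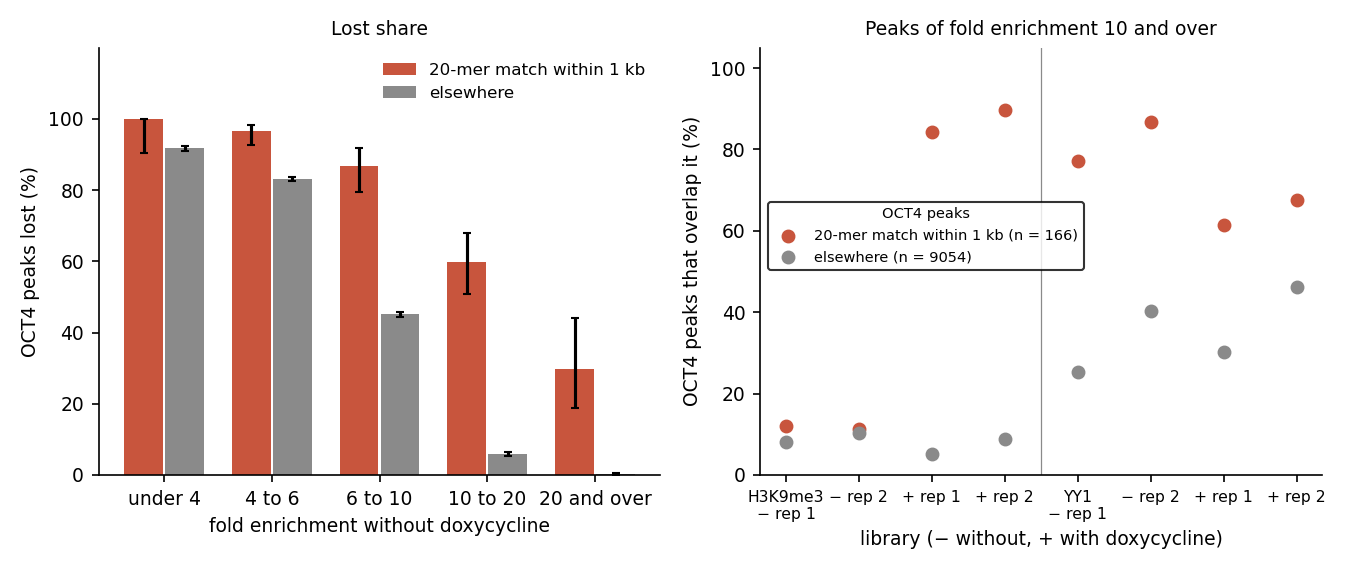
Left, percent of OCT4 peaks lost by fold enrichment without doxycycline, with a 20-mer match within 1 kb (red) and elsewhere (grey), with 95% Wilson intervals. Right, percent of strong OCT4 peaks that overlap a peak of each H3K9me3 and YY1 library, without (−) and with (+) doxycycline, for 166 peaks near a match (red) and 9054 elsewhere (grey). H3K9me3 near a match stands at 12.0% and 11.4% without and at 84.3% and 89.8% with doxycycline.

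Most strong lost peaks had no match to this 20-mer, and sites of the second sgRNA were not searched for. Of the 480, 85 lay near a match, while 14 of the 19 lost peaks at 20 and over did. The other 395 had a median fold enrichment of 11.3, close to the limit of 10, and 10 of them gained H3K9me3. Of these 395, 10.6% lay within 1 kb of a TSS, 11.1% held an octamer and 19.0% overlapped YY1.

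Each pluripotency gene of the list with an OCT4 peak nearby kept its strongest one. Of 40 genes in the list, 39 had a peak with its summit within 50 kb of the TSS. The strongest was kept at all 39, against 9606 of 17040 protein-coding genes with a peak in that distance (56.4%). This comparison was not matched for fold enrichment or for the number of peaks per gene. Most of the 39 strongest peaks were strong, and 94.8% of all strong peaks without doxycycline were kept. The others had values from 6 to 10, the lowest at EPCAM (6.16), a class in which 54.5% of all peaks were kept. The part of peak strength in the difference was not tested. POU5F1 itself had no listed peak within 50 kb in either library. Summed over these genes, 124 of 295 peaks were kept (42.0%), where a peak shared by several listed genes was counted for each of them. With each peak counted a single time, 12057 of 33820 near any protein-coding gene were kept (35.7%), so the shares are not fully alike. Of 15 genes of other lineages, all with a peak, 11 kept their strongest one and 12 kept any, and 19 of 49 peaks were kept (38.8%).

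The fold enrichment at these genes was mostly lower with doxycycline, as in the strong kept peaks as a whole. These peaks too were picked by their values without doxycycline. The peak at SOX2, the partner of OCT4, had a fold enrichment of 68.5 without and 45.4 with doxycycline, and that at NANOG, 111 bp from the TSS, had 53.1 in both. The shared peak of LEFTY1 and LEFTY2, inhibitors of Nodal signalling, was higher with doxycycline (38 and 45.7), and that of LIN28A, an RNA-binding protein that blocks let-7 maturation, was nearly level (28.2 and 26.5). The largest differences were at FOXD3, a forkhead factor (30.9 and 6.40), and at JARID2, a partner of Polycomb complex PRC2 (36.4 and 11.0). TRIM71 (64.8 and 40.5), CD9 (38.4 and 22.8), TERF1 (34.1 and 16.2), GJA1 (32.2 and 17.8) and UTF1 (31.3 and 20.8) lay between, as did DPPA4 with DPPA2 (26.6 and 14.1), L1TD1 (25.7 and 13.9) and OTX2 (21.5 and 11.2).

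**Figure D3:**
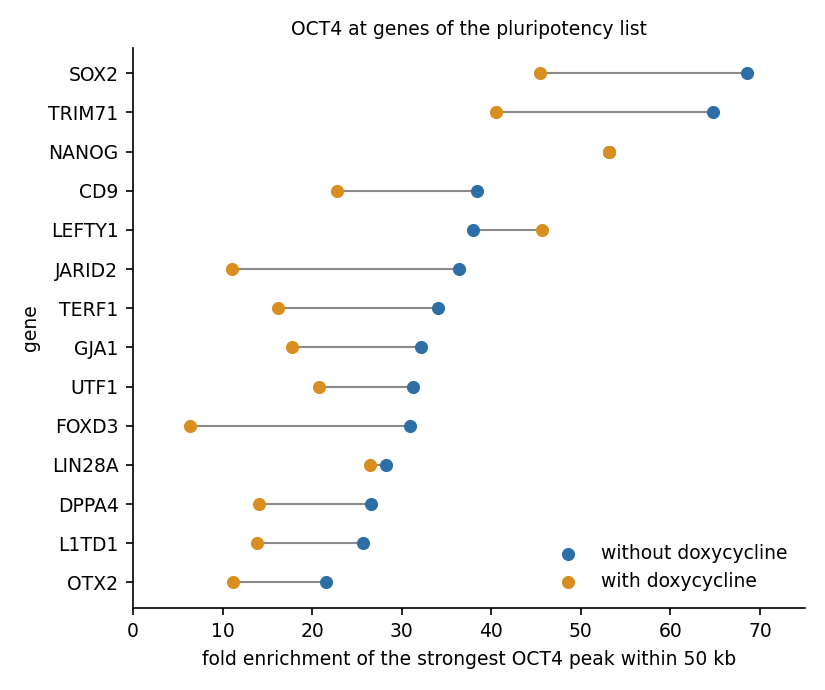
Fold enrichment of the strongest OCT4 peak within 50 kb of the TSS of 14 pluripotency genes, without and with doxycycline, joined by a line for each gene. NANOG has 53.1 in both libraries, LEFTY1 and LEFTY2 are higher with doxycycline and the other genes are lower.

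RNA of the same cells was available in 3 libraries on each side, with 15305909 to 49878613 estimated counts each. Of 16371 genes tested with edgeR's quasi-likelihood test, 16351 had a TSS on the chromosomes used, and of these 1389 were lower (8.49%) and 1459 higher with doxycycline (8.92%), 17.4% in all. Leaving out 1 library moved the 2858 calls among all 16371 genes to between 1396 and 3259, and by over 1.5 times without untreated replicate 2 (1469) or 3 (1748) or doxycycline replicate 1 (1749) or 2 (1396). The p-values measure the spread between these samples, which may be technical, and in bulk RNA fewer cells of a type and less RNA per cell cannot be told apart. POU5F1 had 239.9, 177 and 171 CPM (counts scaled to library size) without and 199, 169.6 and 169.6 with doxycycline, groups that overlapped (log2 fold change -0.12, SE 0.123, edgeR adjusted p = 0.53). SOX2 stood at 625 ± 46.7 and 547 ± 52.2 CPM (SD, n = 3 each, edgeR adjusted p = 0.13). NANOG was lower in all 3 libraries, at 62.2, 62.4 and 59.9 against 42.5, 41.6 and 40.1 CPM (log2 fold change -0.57, SE 0.0522, edgeR adjusted p = 0.00014). YY1 had 139.8 ± 2.96 and 130.2 ± 4.61 CPM (SD, n = 3 each, edgeR adjusted p = 0.2). The 7 OCT4 peaks near the YY1 gene were all lost, but the strongest of them had a fold enrichment of only 7.29. Of all peaks, 45.5% were lost from 6 to 10 and 83.3% from 4 to 6.

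The pluripotency genes as a list leaned lower. Of 38 tested, 16 fell (against 8.49% of all genes tested), 1 rose (against 8.92%) and 21 did not pass the test, with a median log2 fold change of -0.21. TDGF1, a Nodal co-receptor, fell by 1.13 on the log2 scale (edgeR adjusted p = 8.3e-06), and its strongest OCT4 peak had a fold enrichment of 14.8 without and 5.82 with doxycycline. OTX2 rose by 0.23 (edgeR adjusted p = 0.039), a call lost on leaving out any library but doxycycline replicate 1 (adjusted p = 0.068 to 0.13). Of 10 tested genes of other lineages, GATA6, an endoderm factor, rose by 1.46 (edgeR adjusted p = 0.0019) and MIXL1, a mesendoderm factor, by 0.55 (edgeR adjusted p = 0.023). The MIXL1 call was lost with DESeq2 (adjusted p = 0.061) and without untreated replicate 2 or 3 or doxycycline replicate 2 or 3 (edgeR adjusted p = 0.065 to 0.088). The summed level of those lineage genes was 10.6 to 11.8 CPM without and 15 to 17.6 CPM with doxycycline, and its part in the OCT4 result was not tested. Of the 5 genes listed as partners and homologues of OCT4 or factors beside it, 1 was called, CTCF (log2 fold change -0.23, edgeR adjusted p = 0.026). That call was lost without untreated replicate 2 or 3 or doxycycline replicate 1 or 2 (adjusted p = 0.07 to 0.1), while SOX3 passed without untreated replicate 1 (edgeR adjusted p = 0.046) and POU2F1 likewise (edgeR adjusted p = 0.02).

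Genes near strong OCT4 peaks with a 20-mer match were mostly lower where called. Of 88 genes with a TSS within 10 kb of such a peak, 43 fell (48.9%, against 8.49% of all genes tested) and 1 rose. Of 2241 genes near a strong peak without a match, 14.5% fell and 7.59% rose. Of 4359 genes near a kept peak, 13.1% fell and 7.80% rose, of 6330 near lost peaks only 8.29% fell and 9.27% rose, and of 5662 near no OCT4 peak 5.16% fell and 9.40% rose. Of 586 genes near a gained peak, 10.1% fell and 9.90% rose. Within 50 kb of a strong peak near a match, 106 of 282 genes fell (37.6%) and 12 rose.

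Of 7 tested genes nearest to the 8 strongest lost OCT4 peaks, 4 fell and 3 did not pass the test. ST6GAL1 had 219, 234 and 209 CPM without and 82.7, 81.2 and 82.8 CPM with doxycycline (log2 fold change -1.42, SE 0.0573, edgeR adjusted p = 8.5e-07). FAM20A had 64.4, 75.1 and 63.5 against 20.3, 21.2 and 19.9 CPM (log2 fold change -1.73, SE 0.076, edgeR adjusted p = 1.4e-06). In both the groups did not overlap. PLAAT4, at 1.90 ± 0.193 and 0.393 ± 0.113 CPM (SD, n = 3 each), and EEIG2, at 84.2 ± 6.58 and 54.6 ± 3.05 CPM (SD, n = 3 each), fell too, with edgeR adjusted p of 0.00045 and 0.00048. NNT (log2 fold change -0.19, edgeR adjusted p = 0.14), ALKBH1 (-0.12, edgeR adjusted p = 0.28) and TPRG1 (-0.26, edgeR adjusted p = 0.19) did not pass, and PRRC2B was not measured. Of the genes nearest to the 8 strongest kept peaks, NMNAT2 fell by 0.41, MYO5A fell by 0.37 and DENND1B rose by 0.57 on the log2 scale. The NMNAT2 and MYO5A calls were lost without untreated replicate 2 or 3 or doxycycline replicate 2, and that of NMNAT2 also without doxycycline replicate 1 (edgeR adjusted p = 0.059 to 0.097). Of the 8 genes nearest to gained peaks, 0 were called.

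Of the 118 genes called within 50 kb of a strong peak near a match, the 12 with the smallest p all fell. These were chosen after their values were seen. CILP, a cartilage matrix protein, had 38.9, 47.6 and 30.9 CPM without and 1.78, 1.53 and 1.45 CPM with doxycycline (log2 fold change -4.62, SE 0.179, edgeR adjusted p = 8.5e-07), and its OCT4 peak at chr15:65518576-65519896 went from a fold enrichment of 17.2 to 4.06. ENO1, the glycolytic enzyme enolase, went from 7172 ± 153 to 3033 ± 229.5 CPM (SD, n = 3 each), with an OCT4 peak of 14 without and 4.14 with doxycycline. ARMT1 (log2 fold change -1.47, peak 21.9 and 4.97), MMP24, a membrane-bound matrix metalloprotease (-2.20, peak 35.4 and 7.10), and CACNA2D2, a calcium channel subunit (-1.63, peak 23.3 and 4.99), followed the same pattern, and SMIM10L2A (-1.57) lost a peak of 20.6. Not every gene beside a lowered peak fell. Of the 8 genes nearest to the strongest OCT4 peaks near a match, ST6GAL1 and NCOA7 fell and 6 did not pass the test. MFSD4B (peak 62.1 and 9.58) had a log2 fold change of -0.19 (edgeR adjusted p = 0.22). GALNT8 (peak 51.0 and 11.5) had one of -0.10 (edgeR adjusted p = 0.7). MRPL20 had a log2 fold change of -0.07 (edgeR adjusted p = 0.51) and MTIF2 of -0.18 (edgeR adjusted p = 0.08).

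**Figure D4:**
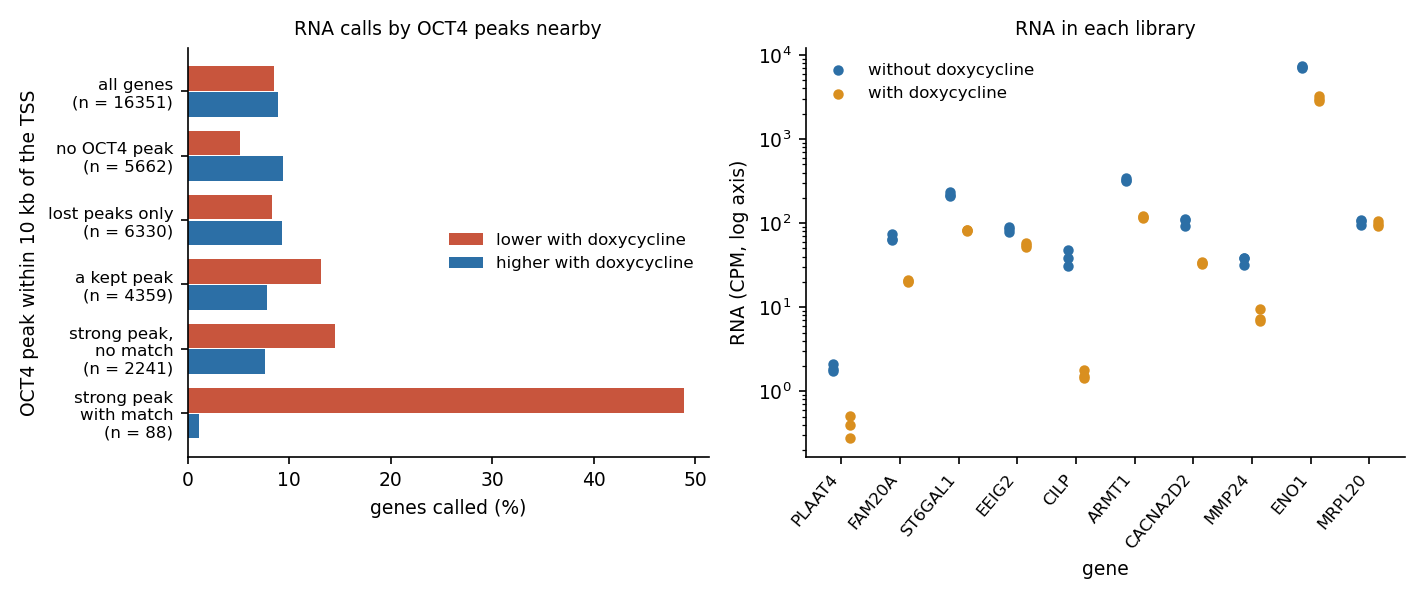
Left, percent of tested genes called lower and higher with doxycycline by the OCT4 peaks within 10 kb of their TSS, in groups that overlap. Right, CPM (log axis) of 10 genes near OCT4 peaks with a match (for FAM20A, a site with 1 mismatch) in each RNA library, without and with doxycycline. The libraries of CILP, ST6GAL1 and FAM20A do not overlap between conditions, and 43 of the 88 genes near a strong peak with a match were lower.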

How the data were processed

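OCT4, YY1 and H3K9me3 were measured by ChIP-seq and RNA by RNA-seq in the libraries named above, and samples were grouped by their labels. Members and gene lists were chosen with earlier results of these data known. For ChIP-seq the authors trimmed reads with TrimGalore, aligned them to hg19 with BWA-MEM, filtered on mapping quality, removed duplicates and called peaks in each sample. The deposited lists give fold enrichment as a ratio and p- and q-values as −log10, with a lowest −log10 q of 1.31 in both OCT4 lists. Reads that map equally well to several repeats are removed by such a filter, so repeats are measured from the reads that remain. Read depth was not given in the sources used here. Peaks on other sequences (225 without and 286 with doxycycline) were left out.

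For RNA, the authors deposited kallisto estimated counts and TPM for 188753 transcripts. Of these, 166506 matched GENCODE v44lift37, holding 95.9% to 96% of the counts, which were summed per gene and rounded. TPM was not tested. Genes passing filterByExpr were compared with edgeR 4.0.16 (TMM, quasi-likelihood F-test, Benjamini-Hochberg adjustment, threshold 0.05) in R 4.3.3, with DESeq2 1.42.0 as an alternative. The scripts were tested on simulated data.

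Python 3.11.15 (pandas 2.3.3, numpy 2.4.6, pysam 0.24.0, scipy 1.17.1) gave overlaps, TSS distances and motifs. The named genes were the pluripotency genes with a peak within 50 kb (the 15 strongest), the genes nearest to the 8 strongest kept, lost and gained peaks, POU5F1, SOX2, NANOG, YY1 and the OCT4 partners. The 20-mer, ATATGCAT and the genes nearest to matches were added after the data had been seen. SVA intervals came from the study's list. 1 gene of that rule and the sequences at lost peaks are not reported here. HiChIP contacts were not used.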

Additional observations from a re-analysis of the deposited data

How the results depend on the processing

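With 1 OCT4 library on each side, the lists cannot show how much of the loss would recur in another pair of libraries. The kept share of 40.0% became 46.5% with a −log10 q of at least 5, 70.8% with the same number of peaks in both lists, 35.0% where at least 50% of a peak had to be covered, 38.8% with summits within 200 bp and 43.5% with peaks within 1000 bp. The gained share of 11.6% became 28.2% with equal numbers, 12.8% with coverage, 15% with summits and 10.4% within 1000 bp. The kept share from 6 to 10 (54.5%) became 45.0%, 56.9%, 46.3%, 52.7% and 56.6% under the 5 settings in that order. The excess of lost over kept peaks at TSSs (19.4 percentage points) became 17.1 with the q limit, 15.5 with equal numbers, 18.5 within 1000 bp and 18.7 with protein-coding TSSs. The excess with YY1 (7.25 points) became 9.53 with coverage, 8.01 with summits, 5.15 with YY1 in either library, and 3.17 to 9.23 with single YY1 libraries. The excess with gained H3K9me3 (0.771 points) became 1.02, 2.09 and 0.929 with the q limit, equal numbers and coverage, and the octamer difference (-6.94 points) became -5.77 in windows of 100 bp. Alternatives added after the data were seen moved the strong peaks near a match that were lost or 2-fold lower from 89.8% to 77.1% with a match within 5 kb, and to 69.3% with fold measured from the median of strong kept peaks, and to 96.4% where NGG had to follow the match. Elsewhere the share of 30.4% became 33.6% with coverage and 6.77% from that median. The cause of these moves was not tested.

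For RNA, leaving out 1 library moved the 2858 called genes to between 1396 and 3259 (1396 without doxycycline replicate 2, 1469 without untreated replicate 2, 1748 without untreated replicate 3, 1749 without doxycycline replicate 1) and the 18 called genes of the named lists to between 11 and 18. The genes lower near a match (43 of 88) then numbered 34 to 44. POU5F1 ranged from -0.21 to 0.04 and POU3F1 from -0.29 to 0.20 (log2), both turning positive without untreated replicate 1. The replicate numbers did not pair the samples (correlations of same-numbered deviations 0.13, 0.08 and -0.00), and with the replicate block 3316 genes were called, 2747 of them among the 2858. With the block SOX3 (adjusted p = 0.03), UTF1 (0.011), NNT (0.043) and MTIF2 (0.048) passed too. Among 550 fits of single named genes under other settings, 502 kept their direction and side of the threshold, 38 lost a call (10 genes), 8 gained one (6 genes) and 2 turned direction.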
